A study of Mus musculus with 40 samples.

Results

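Tumors from 5 mice given anti-GARP:TGFb FcD + anti-PD1 FcS were compared with tumors from 5 mice given the mIgG2a isotype control. These 10 mice were chosen by their treatment labels out of 40 mice in 8 treatment groups. BALB/c mice aged 6 to 12 weeks received 1000000 live cells of CT26, a BALB/c colon carcinoma line, under the skin. Antibodies were injected on days 6, 9 and 12, and RNA was sequenced from fragments of tumors collected on day 13, all cells of the fragment together. Both groups carried the same tumor line, and no transgene or deletion was involved. The isotype control was motavizumab, an antibody to a respiratory virus without a mouse target, in a mouse IgG2a format. The treated group, called here the FcD combination, received clone 58A2 against GARP:TGF-β1 in an Fc-dead mouse IgG2a format with 2 substitutions that prevent binding to Fcγ receptors, together with the variable regions of RMP1-14 against PD-1 in an Fc-silent mouse IgG2a. The question was which genes differ in tumors when GARP:TGF-β1 and PD-1 are blocked together by antibodies that cannot engage Fcγ receptors. The authors measured binding of motavizumab to Fcγ receptors in the WT mouse IgG2a format and none in the Fc-dead format. The label of the control names no Fc-dead format. The groups may therefore also differ in Fcγ receptor binding, which cannot be told apart here from the blockade.

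GARP, encoded by Lrrc32, holds latent TGF-β1 on the surface of stimulated regulatory T cells (Tregs) and presents it for activation by integrins. Active TGF-β1 restrains the cytokine production and killing capacity of nearby T cells. PD-1 on T cells restrains them through a separate pathway when bound by PD-L1, whose gene Cd274 is itself induced by interferon-γ (IFNγ). IFNγ released by T and NK cells signals through JAK kinases in tumor cells, macrophages and stroma, and induces antigen presentation genes, GTPases of host defense and chemokines.

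In the 10 tumors the read counts assigned to genes totaled 12359062 to 16232524 per mouse. Levels are given as CPM, counts per 1000000 reads of a mouse's normalised library, and differences as log2 fold changes with their standard error from 1 edgeR model of all 40 mice. Krt20, a keratin of colon epithelium, was at 75.9, 141, 70.6, 96.8 and 63.9 CPM in isotype mice 1 to 5 and at 57.1, 80.5, 61.9, 41.9 and 44.9 CPM in FcD combination mice 1 to 5. Cdx2, the intestinal transcription factor, lay between 1.86 and 5.88 CPM in the 10 tumors, so both markers of intestinal origin were present in each group. Markers of cells beside the tumor were uneven among the treated mice. The summed CPM of 10 adipocyte genes was 217, 131, 80.5, 40.6 and 46.1 in isotype mice 1 to 5 and 782, 145, 422, 1560 and 173 in FcD combination mice 1 to 5. FcD combination mice 1 and 4, which are libraries 44 and 71 of the series, had the highest sums, mouse 3 was also above every isotype mouse, and mice 2 and 5 were within the range of the controls. The plot of marker sums by library shows the same for epithelial genes in mouse 4 and for hemoglobin genes in mice 1, 2 and 4. Results are therefore given also without libraries 44 and 71, and with the adipocyte level as a covariate, both chosen after these values were seen. What part adipose tissue had in any difference was not tested. Libraries 41 to 60 held transcripts of the Y chromosome and libraries 61 to 80 held Xist, and the treated group had 3 and 2 mice in these parts against 2 and 3 of the isotype group.

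**Figure D1:**
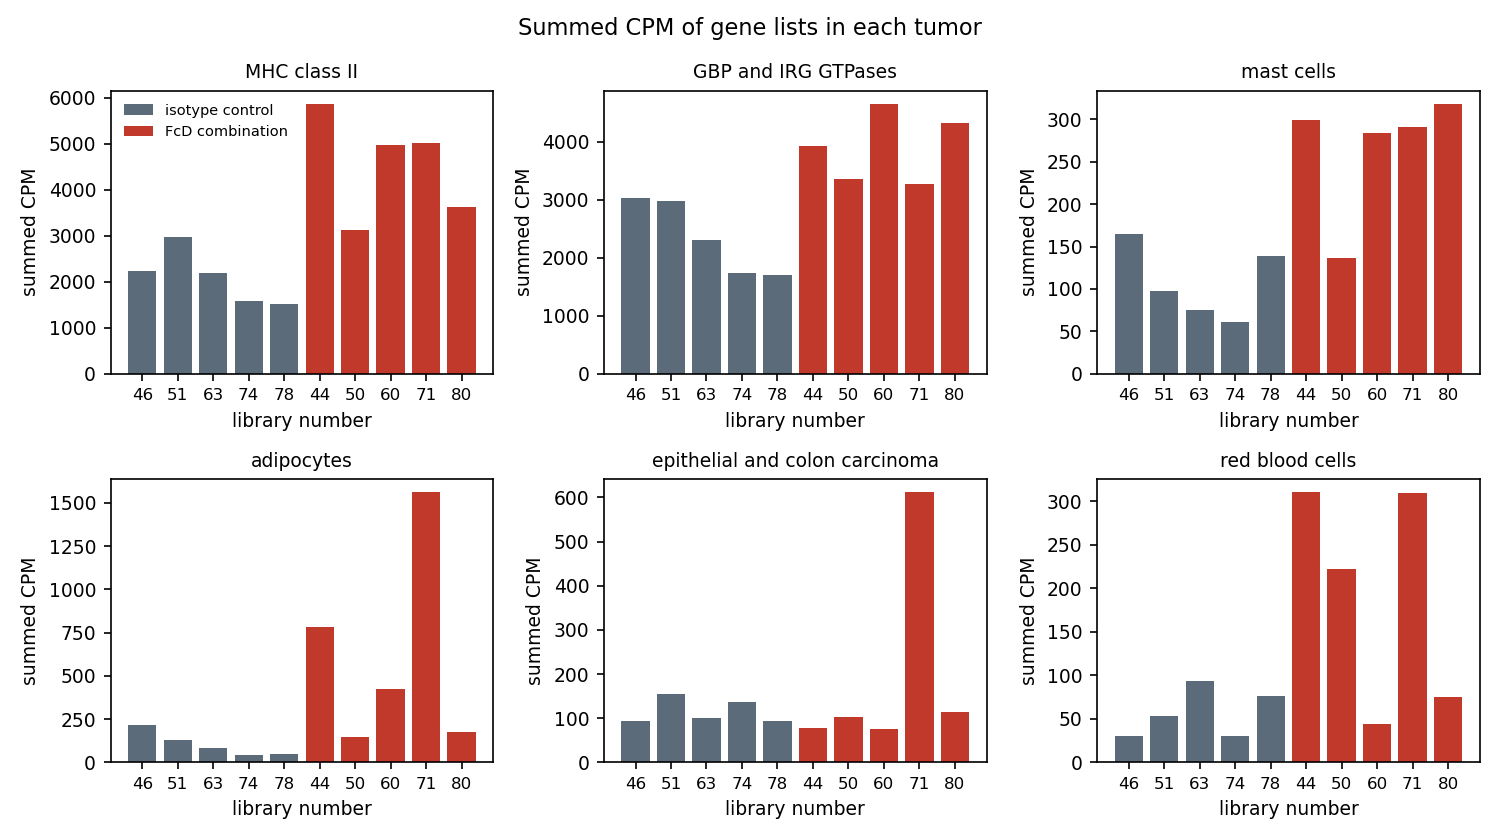
Summed CPM (vertical axes) in each of the 10 tumors, ordered by library number (horizontal axes), for 6 gene lists, with isotype mice in grey and FcD combination mice in red. Adipocyte sums reached 782 and 1560 in FcD combination mice 1 and 4, while class II sums were above every isotype mouse in all 5 treated mice.

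Across the genome the FcD combination differed from isotype by many moderate differences and no single gene that passed the test in the model of all 40 mice. Of 14760 genes tested, none (0.0%) reached an adjusted p under 0.05 in edgeR's quasi-likelihood test with Benjamini-Hochberg adjustment, and the smallest adjusted p was 0.134. DESeq2's Wald test called 14, all higher. Here and below that test started from 31326 genes with a count, without the filter on low counts. At an unadjusted p under 0.05, 1582 genes (10.7%) were higher and 863 (5.85%) were lower. In 289 genes (1.96%) all 5 treated mice lay above all 5 isotype mice, and in 190 (1.29%) they lay below. Without libraries 44 and 71 the counts at an unadjusted p under 0.05 were 217 higher (1.44%) and 116 lower (0.77%), and with the adipocyte covariate they were 157 (1.06%) and 102 (0.691%). Of the 2445 genes under 0.05, 11.4% kept that p without the pair of libraries and 8.55% kept it with the covariate. Leaving out FcD combination mouse 2 instead gave 2226 higher (14.9%) and 2242 lower (15.0%), and none passed the adjustment. The median log2 fold change over all genes tested was -0.00398, against which the medians of gene lists are read below. Counts of list members are likewise read beside 10.7% higher, 5.85% lower, 1.96% fully above and 1.29% fully below. All p-values quoted for single genes below are adjusted ones from edgeR's quasi-likelihood test in the model of 40 mice, and none is under 0.05 unless that is said.

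The adjusted calls differed between fits. When the 10 mice were fitted alone, with a gene filter, normalisation and estimate of the spread of their own, 177 of 13648 genes (1.3%) passed, 173 higher and 4 lower, with adjusted p between 0.0456 and 0.0499. In that fit 2031 genes (14.9%) were higher and 870 (6.37%) lower at an unadjusted p under 0.05. The 177 genes held 8 of 9 tested class II genes, among them H2-Ab1, H2-Eb1, H2-Aa, Ctss and Cd74, 5 of 17 GTPases with Gbp5, Gbp11 and Gbp4, and 3 of 16 IFNγ core genes, Socs1, Irf8 and Ciita. Ifng, Tnf and Ccl5 made up 3 of 8 tested effector cytokines, and Cd274, Cd40, Foxp3, Il27, Acod1, Icam1, Ass1 and Sod2 were also called. The 4 lower genes were Chac1, the amino acid transporter genes Slc1a4 and Slc7a5, and Shmt2, an enzyme of mitochondrial serine metabolism, the last 3 named after their values were seen. No gene of cholesterol synthesis or the cell cycle was among the 177. The calls were close to the threshold, and in that fit none was left with any 1 of FcD combination mice 1, 3, 4 and 5 or isotype mice 1, 2, 4 and 5 left out, without libraries 44 and 71, or with the adipocyte covariate. Without isotype mouse 3 there were 120, of which 81 were shared with the 177, and without FcD combination mouse 2 there were 3281, which held all 177. Leaving mice out of the fit of 10 was chosen after the data were seen.

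The counts also differed between the parts of the series that the host transcripts set apart. Within libraries 61 to 80, with FcD combination mice 4 and 5 against isotype mice 3, 4 and 5 and the spread taken from all groups of that part, 266 genes (1.75%) passed an adjusted p of 0.05, 239 higher and 27 lower, and 2010 (13.2%) were higher and 1503 (9.9%) lower at an unadjusted p under 0.05. Within libraries 41 to 60, with FcD combination mice 1, 2 and 3 against isotype mice 1 and 2, no gene (0.0%) passed in edgeR, and 172 (1.15%) were higher and 159 (1.07%) lower. GTPases were higher in 14 and 0 of 17 members in these parts at medians of 1.01 and 0.392, mast cell genes in 9 and 0 of 9 at medians of 1.76 and 0.892, and class II genes in 3 and 0 of 10 at medians of 1.33 and 0.754. Ribosomal protein genes were lower in 75 and 0 of 84. In a test of the difference between the parts, an interaction term in edgeR over all 40 mice, 0 of 15602 genes passed an adjusted p of 0.05, and 215 had a higher and 357 a lower log2 fold change in libraries 61 to 80 at an unadjusted p under 0.05. Adipocyte genes had medians of 5.65 and 1.34 in these parts, and their part was not tested. Since every fit filters genes on its own mice, a list can gain or lose a member between fits.

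**Figure D2:**
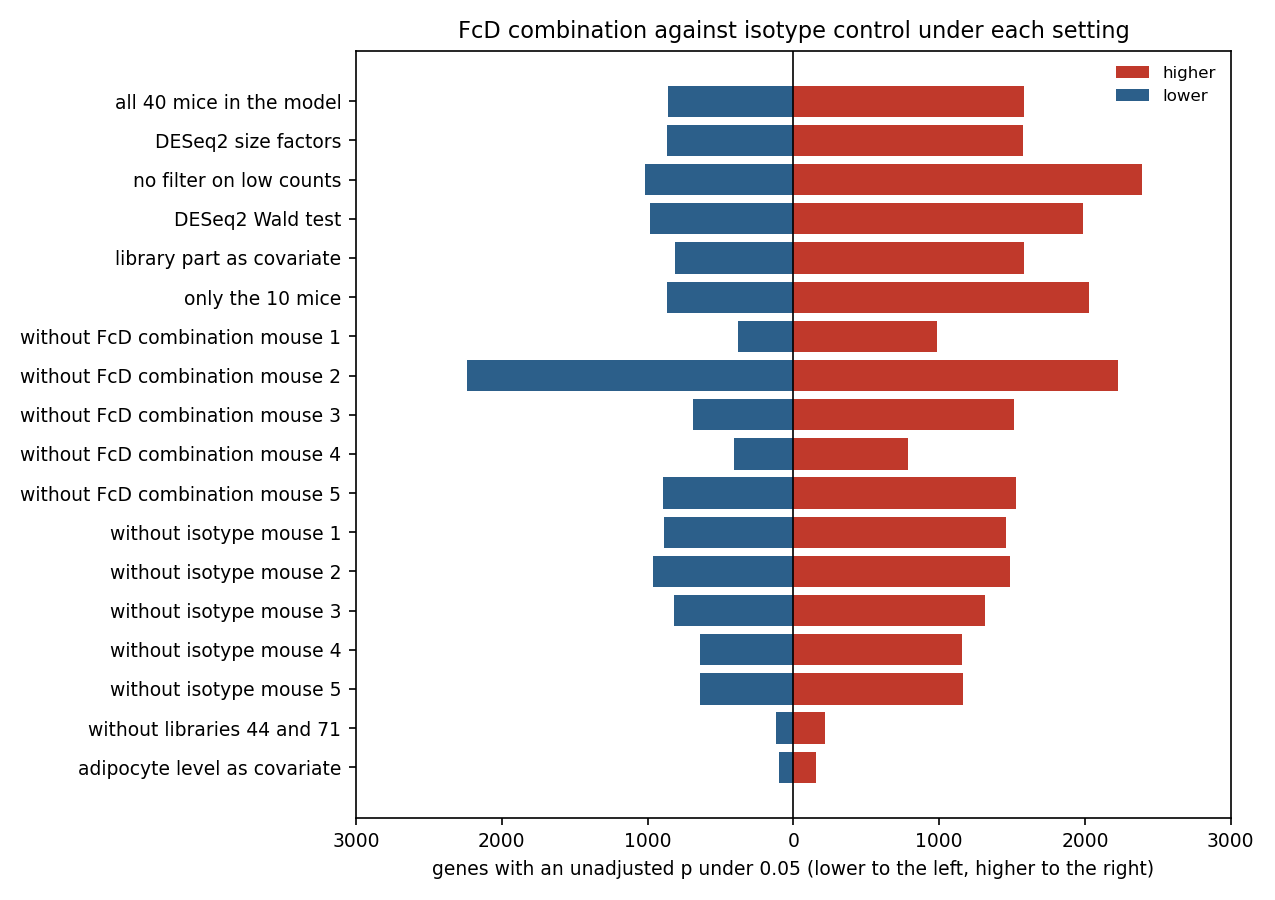
Number of genes at an unadjusted p under 0.05 (horizontal axis) that were higher or lower in the FcD combination than in isotype, for each processing setting (vertical axis). The counts go from 1582 higher and 863 lower as reported to 217 and 116 when libraries 44 and 71 are left out.

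Cytokines that effector T cells release stood among the clearest differences. Of 12 listed genes 9 were abundant enough to test. Of these 6 reached an unadjusted p under 0.05, all of them higher in the FcD combination, beside 10.7% of all genes higher. Ifng, which encodes IFNγ (chr10:118441046-118445892 in GRCm38), was at 1.61, 1.57, 1.46, 0.786 and 0.554 CPM in isotype mice 1 to 5 and at 3.31, 2.56, 3.85, 3.51 and 3.58 CPM in FcD combination mice 1 to 5. Every treated tumor exceeded every isotype tumor, and the treated mice were close to each other. The difference was 2.79-fold (1.48 ± 0.47 on the log2 scale). Tnf, the gene of the inflammatory cytokine TNFα (chr17:35199381-35202007), was at 10.1, 8.89, 10.4, 6.13 and 6.17 CPM in isotype mice 1 to 5 and at 18.4, 14.4, 22, 16.4 and 22.3 CPM in FcD combination mice 1 to 5. Its groups did not overlap either, and the fold was 2.24 (log2 1.16 ± 0.34). Ccl5, a chemokine that draws T cells and monocytes, was at 21.4, 15.8, 18.9, 11.2 and 12.4 CPM in isotype mice 1 to 5 and at 65, 23.4, 46.5, 45.3 and 31.7 CPM in FcD combination mice 1 to 5. All 5 treated mice again lay above the isotype range, mouse 2 by the smallest margin, at a fold of 2.65. Ccl3, a chemokine of activated T cells and macrophages, was 2.82-fold higher (log2 1.49 ± 0.43) with treated mice 2 and 3 inside the isotype range. Ifng, Tnf, Ccl5 and Ccl3 had adjusted p of 0.225. Il2, the growth factor of T cells, was near 0 in every tumor and not tested. The median log2 fold change was 1.16 over 9 members, 0.998 over 10 without libraries 44 and 71 with 5 under 0.05, and 0.732 with the adipocyte covariate with 4. For Ifng itself the log2 fold change was 1.46 ± 0.54 without those libraries and 1.25 ± 0.51 with the covariate, so the estimate moved by less than its standard error. In RNA of unsorted tumor fragments, more cells of a type and more RNA per cell cannot be told apart.

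The machinery by which cells respond to IFNγ was higher as well. Of 16 core genes, all tested, 8 were higher at an unadjusted p under 0.05 and none lower, beside 10.7% of all genes higher. The median log2 fold change was 0.47. Socs1, the inhibitor that IFNγ induces against its own receptor kinases (chr16:10782240-10785536), was at 31.8, 19.4, 27.1, 17.8 and 18.4 CPM in isotype mice 1 to 5 and at 39.9, 40.1, 38.9, 33.8 and 40.4 CPM in FcD combination mice 1 to 5. The 5 treated mice spanned a narrow range above all isotype mice, and the fold was 1.68 (log2 0.75 ± 0.21). Socs3, a related inhibitor of cytokine signaling, was at 113, 109, 113, 94.5 and 91.5 CPM in isotype mice 1 to 5 and at 159.6, 133, 124, 124 and 147 CPM in FcD combination mice 1 to 5. It too separated the groups completely, at a smaller fold of 1.32. Irf8, a transcription factor of macrophages and dendritic cells, was at 83, 83, 100.2, 67.6 and 76 CPM in isotype mice 1 to 5 and at 182, 103, 130.3, 143 and 128 CPM in FcD combination mice 1 to 5. No treated mouse overlapped the isotype range, and mouse 1 was highest. Ciita, the master regulator of class II genes, was 3.05-fold higher (log2 1.61 ± 0.62) at 17.7, 26.2, 13.3, 13.4 and 11.8 CPM in isotype mice and 68.6, 21, 60.9, 63.9 and 37 CPM in treated mice. Here treated mouse 2 lay inside the isotype range while the others were above it. Adjusted p was 0.225 to 0.245 for these 4 genes. The list median differed little without libraries 44 and 71, at 0.516 with 6 members under 0.05, and with the adipocyte covariate, at 0.449 with 5.

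Guanylate-binding proteins and immunity-related GTPases attack vacuoles and membranes of intracellular pathogens and are classical targets of IFNγ. Of 17 tested members 10 were higher at an unadjusted p under 0.05, none was lower and 6 showed no overlap. Over all genes 10.7% were higher and 1.96% had all treated mice above all isotype mice. Gbp5, which promotes inflammasome activity (chr3:142493978-142522344), was at 61.8, 64.4, 47.3, 36.5 and 40.1 CPM in isotype mice 1 to 5 and at 105, 71.3, 114, 95.9 and 102 CPM in FcD combination mice 1 to 5. All treated mice exceeded all isotype mice, and mouse 2 was again the lowest of them, with a fold of 1.95 (log2 0.96 ± 0.36). Gbp4 was at 437, 422, 311, 231 and 237 CPM in isotype mice 1 to 5 and at 659.7, 494, 774, 562 and 701 CPM in FcD combination mice 1 to 5. Its groups were also apart, at 1.95-fold. Gbp11 and Gbp6 were 1.89-fold and 1.67-fold higher. Adjusted p for the 4 genes was 0.241 to 0.276. The family shares long stretches of sequence, so reads of near-identical members could have been split or dropped by the authors' counting. The median log2 fold change of 0.675 was 0.777 without libraries 44 and 71 and 0.622 with the adipocyte covariate, although the number of members under 0.05 went to 5 and 1.

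To show the upstream sequence of IFNγ-related genes described above, promoters were read from RefSeq (GRCm38.p6, the C57BL/6J reference, not BALB/c) and searched on both strands for letters that transcription factors of the interferon response are known to bind. Capitals mark GAS (TTCNNNGAA) and the ISRE core (TTTC, 2 free bases, TTTC) in the following 3 promoters, chosen among those that held a match, each printed 5′ to 3′ on the strand of its gene. The Socs1 stretch lies at chr16:10785537-10785639 on the minus strand, Irf8 at chr8:120736167-120736357 and Gbp5 at chr3:142496684-142496933, both on the plus strand. The RefSeq start of Gbp5 used here lies inside the GENCODE span given above, which begins further upstream.
Socs1: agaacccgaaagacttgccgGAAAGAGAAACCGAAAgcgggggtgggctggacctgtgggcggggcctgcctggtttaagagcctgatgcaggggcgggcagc
Irf8: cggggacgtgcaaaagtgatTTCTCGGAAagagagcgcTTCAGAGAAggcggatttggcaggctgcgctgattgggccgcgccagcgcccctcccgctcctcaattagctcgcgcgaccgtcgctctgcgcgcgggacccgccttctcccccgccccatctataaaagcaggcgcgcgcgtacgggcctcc
Gbp5: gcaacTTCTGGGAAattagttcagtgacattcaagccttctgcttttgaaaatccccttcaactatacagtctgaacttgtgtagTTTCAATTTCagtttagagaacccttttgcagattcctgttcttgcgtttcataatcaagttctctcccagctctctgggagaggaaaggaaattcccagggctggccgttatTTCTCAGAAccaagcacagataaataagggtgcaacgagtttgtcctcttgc
In Socs1 the capitals are 2 overlapping matches to the ISRE core on the opposite strand, in Irf8 they are 2 GAS matches, and in Gbp5 they are 2 GAS matches with 1 ISRE core between them. Among 32851 promoters listed there, 3.44% held the ISRE core and 8.3% held GAS. Promoters were listed for 10 of the GTPase genes, and the ISRE core was in 10 of them and GAS in 6. Of 11 promoters of IFNγ core genes, the ISRE core was in 2 and GAS in 3. Among 22 promoters of type I interferon-stimulated genes, few of which were called, the ISRE core was in 13 and GAS in 4. The promoter of Socs3 held GAS too and is not printed. A match is only a run of letters, and binding was not measured here.

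Class II antigen presentation, through which macrophages, dendritic cells and B cells show peptides to CD4+ T cells, had the highest number of fully separated genes among the lists of immune function. Of 10 genes tested, 7 were higher at an unadjusted p under 0.05 and 8 had every treated mouse above every isotype mouse. The shares over all genes were 10.7% and 1.96%. H2-Ab1, the β chain of the I-A molecule (chr17:34257689-34269419), was at 306, 387, 277, 179 and 162 CPM in isotype mice 1 to 5 and at 927, 455, 739, 766 and 478 CPM in FcD combination mice 1 to 5. No value overlapped, treated mouse 2 came nearest to the controls, and the fold was 2.57 (log2 1.36 ± 0.53). H2-Eb1, the β chain of I-E, was at 289, 379.6, 232, 153 and 135 CPM in isotype mice 1 to 5 and at 795, 401, 713, 735 and 435 CPM in FcD combination mice 1 to 5. The separation was the same with mouse 2 lowest and a fold of 2.59. H2-Aa, the α chain of I-A, was 2.39-fold higher, and Ctss, the protease that trims the invariant chain, was at 501, 651, 616, 496 and 539 CPM in isotype mice 1 to 5 and at 1183, 669, 1021, 974 and 947 CPM in FcD combination mice 1 to 5. Ctss also separated the groups. Cd74, the invariant chain, was 2.19-fold higher, a gene chosen after its values were seen. H2-Ab1, H2-Eb1, H2-Aa, Ctss and Cd74 had adjusted p of 0.246 to 0.271. The summed CPM of the list was 2240, 2970, 2180, 1590 and 1520 in isotype mice and 5860, 3130, 4970, 5010 and 3630 in treated mice. The median log2 fold change without libraries 44 and 71 was 0.888 rather than 1.11 and 0 members were under an unadjusted p of 0.05, and with the adipocyte covariate it was 0.625 with 0.

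Promoters of class II genes carry a Y box, bound by NF-Y. It is shown in capitals (CTGATTGG) for 2 of the chains named above, whose start sites lie close together on chromosome 17, at chr17:34287824-34287894 on the minus strand for H2-Aa and chr17:34305785-34305866 on the plus strand for H2-Eb1.
H2-Aa: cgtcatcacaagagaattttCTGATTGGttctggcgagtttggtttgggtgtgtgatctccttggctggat
H2-Eb1: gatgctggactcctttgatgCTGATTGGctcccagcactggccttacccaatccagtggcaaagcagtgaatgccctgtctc
The Y box began 51 and 62 bases before the annotated starts of H2-Aa and H2-Eb1. It was in 3 of the 8 class II genes with a promoter in the table and in 4.1% of all promoters. The same letters were in 7 of 16 promoters of class I genes and 6 of 11 of the unfolded protein response, so they do not mark class II genes alone.

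Genes of class I presentation and type I interferon were under an unadjusted p of 0.05 in few members, beside 10.7% of all genes higher in the model of 40 mice. Of 18 class I genes 1 was higher at an unadjusted p under 0.05, H2-T23, a non-classical class I molecule, at 266, 271, 329.9, 217 and 202 CPM in isotype and 383, 411, 359, 347 and 329.5 CPM in treated mice. Its ranges met at the edge, with the lowest treated mouse just below the highest isotype mouse. The class I median was 0.167 on the log2 scale. Among 28 type I interferon-stimulated genes 1 was under 0.05, Oasl1, an oligoadenylate synthetase-like protein, at a fold of 1.22. The median of that list was 0.269, with 26 of 28 log2 fold changes above 0, and 3 members were under 0.05 with the adipocyte covariate and 5 without FcD combination mouse 2. In the fit of the 10 mice alone 16 of 28 type I and 4 of 18 class I genes were higher at an unadjusted p under 0.05, where 14.9% of all genes were. Rsad2, the antiviral protein viperin, was at 48.4, 39.8, 27.7, 35 and 32.1 CPM in isotype mice 1 to 5 and at 94.7, 32.4, 46.6, 60.2 and 57.1 CPM in FcD combination mice 1 to 5. Treated mouse 1 was highest and mice 2 and 3 lay among the controls. H2-T23, Oasl1 and Rsad2 had adjusted p of 0.276 to 0.309.

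**Figure D3:**
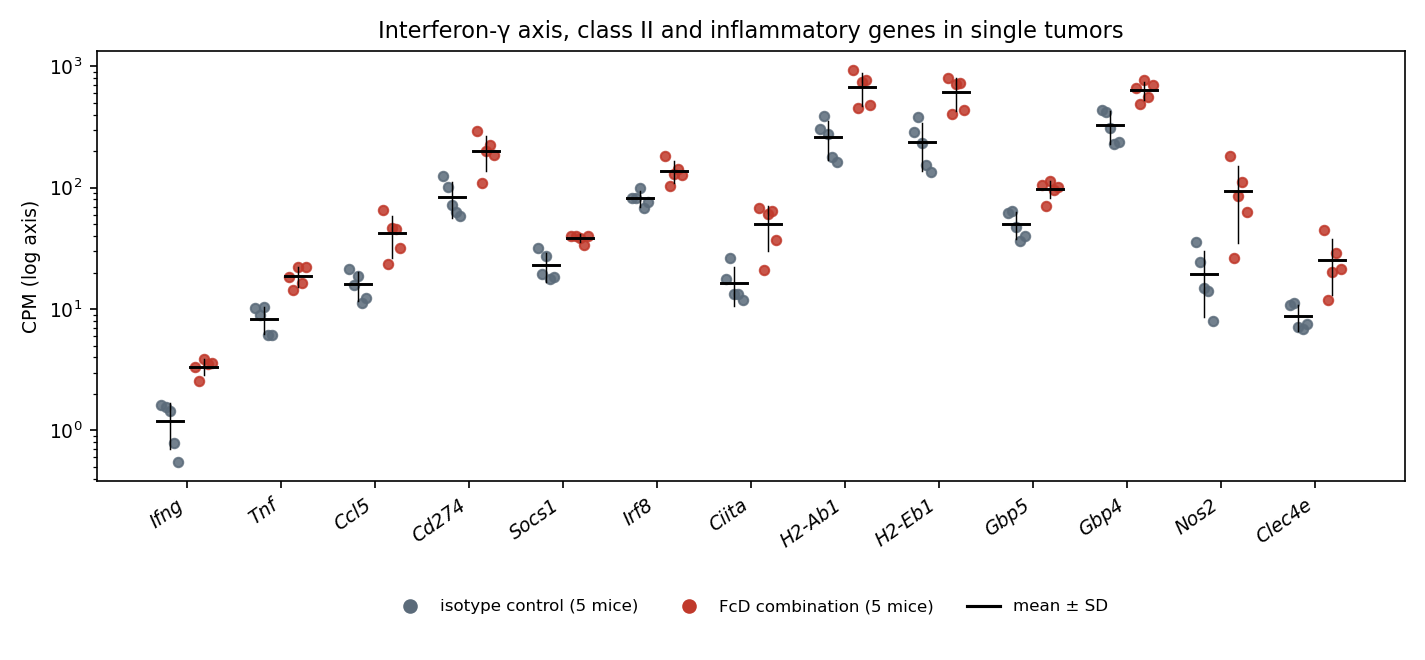
CPM on a log axis (vertical) of 13 genes (horizontal) in single tumors, isotype in grey and FcD combination in red, with bars for the mean and SD of 5 mice. Ifng, Tnf, Ccl5, Socs1, Irf8, H2-Ab1, H2-Eb1, Gbp5, Gbp4 and Clec4e show no overlap between groups, whereas Cd274, Ciita and Nos2 have 1 treated mouse, mouse 2, inside the isotype range.

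T cell genes were called at about the share of all genes. Of 13 genes of the T cell receptor complex and its coreceptors, 1 was higher at an unadjusted p under 0.05, beside 10.7% of all genes tested. Cd8a, the coreceptor of cytotoxic T cells, was at 18.2, 22, 12.9, 18.1 and 6.51 CPM in isotype mice 1 to 5 and at 29.5, 6.64, 16.6, 9.3 and 15.8 CPM in FcD combination mice 1 to 5. Treated mouse 1 was above the isotype range and the other 4 were not, and the log2 difference was 0.00 ± 0.65. Cd3e, a signaling chain of the receptor, differed by 0.17 ± 0.56 with the highest value in treated mouse 1. The gene under 0.05 was Cd4, at 1.36, 2.76, 1.53, 1.41 and 1.8 CPM in isotype mice 1 to 5 and at 5.04, 1.51, 6.01, 4.45 and 3.65 CPM in FcD combination mice 1 to 5. The 4 treated mice other than mouse 2 lay above all isotype mice, at a fold of 2.33. The list median was 0.379, 0.0104 without libraries 44 and 71 and -0.128 with the adipocyte covariate. All 13 log2 fold changes were above 0 with all mice, and the widest were those of Cd28, a costimulatory receptor, at 1.58 ± 0.85, Cd4, Cd2 at 0.87 ± 0.51 and Cd247, a signaling chain, at 0.85 ± 0.52. Adjusted p for Cd4 was 0.24 and that for Cd8a was 0.999. Cd8a, Cd3e, Cd28, Cd2 and Cd247 were chosen after their values were seen.

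Cytotoxic genes varied among the treated mice. Gzmb, granzyme B of killer cells (chr14:56258838-56262260), was at 75, 52.9, 81.8, 34.7 and 54.1 CPM in isotype mice 1 to 5 and at 213, 65.6, 113, 119 and 111 CPM in FcD combination mice 1 to 5. Treated mouse 1 was highest, mouse 2 was inside the isotype range, and the fold was 2.08 (log2 1.06 ± 0.40). Prf1, which encodes the pore-forming perforin, was at 54.9, 38, 56, 33.9 and 38.6 CPM in isotype mice 1 to 5 and at 121, 34.9, 50.3, 48.6 and 61.7 CPM in FcD combination mice 1 to 5. Only treated mouse 1 stood well apart from the isotype range, and the log2 difference was 0.51 ± 0.39. Serpinb9, an inhibitor by which killer cells and their targets resist granzyme B, was at 39.6, 39.2, 33, 31.6 and 36.4 CPM in isotype mice 1 to 5 and at 65.2, 34.5, 57.7, 69.5 and 61.1 CPM in FcD combination mice 1 to 5. All but mouse 2 exceeded every isotype mouse, at 1.6-fold. Of 14 members 2 were higher at an unadjusted p under 0.05, beside 10.7% of all genes tested. The median of 0.583 was 0.101 without libraries 44 and 71, where 0 members were under 0.05, and 0.378 with 2 under 0.05 with the adipocyte covariate. Gzmb, Prf1 and Serpinb9 had adjusted p of 0.237 to 0.484.

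Genes of both PD-1 ligands were higher, and Pdcd1 was not. Cd274, which encodes PD-L1 (chr19:29367455-29388095), was at 124, 102, 71.8, 63.6 and 58.5 CPM in isotype mice 1 to 5 and at 292, 109.7, 199, 226 and 186 CPM in FcD combination mice 1 to 5. Treated mouse 2 was within the isotype range and the other 4 were above it, at a fold of 2.41 (log2 1.27 ± 0.41). Pdcd1lg2, the gene of PD-L2, was at 6.8, 4.71, 2.15, 1.02 and 2.63 CPM in isotype mice 1 to 5 and at 26.2, 4.75, 17.4, 12.9 and 17.1 CPM in FcD combination mice 1 to 5. Mouse 2 was again among the controls and the other 4 were above them, at a fold of 4.49. Ido1, an enzyme that depletes tryptophan, was 3.59-fold higher, but its treated values ran from 6.13 to 61.8 CPM with mouse 4 far above the others. Pdcd1, the gene of PD-1 itself, was at 14.4, 11.4, 10.1, 9.59 and 6.65 CPM in isotype mice 1 to 5 and at 18.7, 4.83, 7.53, 4.32 and 5.97 CPM in FcD combination mice 1 to 5. Mouse 1 was highest, mouse 3 was in the isotype range and mice 2, 4 and 5 were below it, giving a log2 difference of -0.34 ± 0.61. Adjusted p was 0.225 for the ligands and Ido1 and 0.785 for Pdcd1. Cd40, the costimulatory receptor of antigen-presenting cells, was at 10.9, 10.8, 18.7, 7.86 and 11.6 CPM in isotype mice 1 to 5 and at 18.9, 24.4, 24.4, 21.6 and 20.7 CPM in FcD combination mice 1 to 5. All treated mice exceeded all isotype mice, although by little in mouse 1. Among 13 genes of the PD-1 axis and inhibitory receptors 3 were higher at an unadjusted p under 0.05 (median 0.601), 2 without libraries 44 and 71 (median 0.171) and 2 with the adipocyte covariate (median 0.037), where 1 was lower. Cd274 differed by 0.96 ± 0.46 and 0.82 ± 0.43 under these settings. Among 10 tested activation and costimulation receptors 3 were higher, 1 without libraries 44 and 71 (median 0.347) and 1 with the adipocyte covariate (median 0.2).

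Markers of the cells targeted by the antibody were not lower after treatment. Foxp3, the transcription factor that defines Tregs (chrX:7573644-7595245), was at 1.17, 0.523, 0.625, 0.393 and 0.554 CPM in isotype mice 1 to 5 and at 1.87, 1.13, 3.61, 2.43 and 2.06 CPM in FcD combination mice 1 to 5. Treated mouse 2 fell just within the isotype range and the others were above it, and the fold was 3.32 (log2 1.73 ± 0.49). Ikzf4, a partner of Foxp3, was at 0.804, 0.299, 0.486, 0.393 and 0.277 CPM in isotype mice 1 to 5 and at 1.15, 0.453, 1.44, 1.62 and 1.26 CPM in FcD combination mice 1 to 5. Mouse 2 again lay among the controls, at 2.57-fold. Il2ra, the IL-2 receptor chain high on Tregs, and Tnfrsf18, the receptor GITR, were 1.84-fold and 1.66-fold higher. Of 9 Treg genes 4 were higher at an unadjusted p under 0.05 and none lower, beside 10.7% of all genes higher, with a median of 1.01. The median was 0.663 with 2 members under 0.05 without libraries 44 and 71, where Foxp3 differed by 1.75 ± 0.55, and 0.524 with 1 under 0.05 with the adipocyte covariate. Foxp3, Ikzf4, Il2ra and Tnfrsf18 had adjusted p of 0.225 to 0.276, and each of them was at low CPM, so their values rest on few reads.

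Lrrc32, the gene of GARP (chr7:98489283-98502181), was at 4.64, 5.75, 5.07, 3.22 and 1.66 CPM in isotype mice 1 to 5 and at 12.5, 2.64, 6.17, 10.4 and 5.84 CPM in FcD combination mice 1 to 5. Treated mice 1, 3, 4 and 5 lay above the isotype maximum and mouse 2 was inside the isotype range, for a log2 difference of 0.88 ± 0.44. That difference was 0.25 ± 0.48 without libraries 44 and 71 and -0.05 ± 0.36 with the adipocyte covariate. Tgfb1, which encodes the cytokine that GARP presents, was at 89.4, 88.7, 109.7, 92.4 and 91.2 CPM in isotype mice 1 to 5 and at 124, 83, 89, 91.5 and 115 CPM in FcD combination mice 1 to 5. Treated mice 1 and 5 were above the isotype range, mouse 2 was below it and mice 3 and 4 were inside, and the log2 difference was 0.09 ± 0.16. Lrrc32 had an adjusted p of 0.306 and Tgfb1 one of 0.786. Of 13 tested genes for the production and activation of TGF-β1, 2 were higher at an unadjusted p under 0.05 and 1 was lower, beside 10.7% and 5.85% of all genes. Those higher were Furin, a protease that cleaves the TGF-β1 precursor, at 1.26-fold and Thbs1, an extracellular activator of latent TGF-β1, at 2.06-fold. The lower one, Ltbp4, which anchors latent TGF-β in the matrix, was at 440.2, 378, 427, 427 and 399.5 CPM in isotype mice 1 to 5 and at 275, 420.4, 325, 256 and 299 CPM in FcD combination mice 1 to 5. Treated mouse 2 was in the isotype range and the other 4 were below it. The median over the list was 0.178, and -0.0234 without libraries 44 and 71 and -0.0467 with the adipocyte covariate, with no member under 0.05 in either. These 3 genes had adjusted p of 0.24 to 0.254.

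Genes that carry or respond to TGF-β signals were compared next. Of 7 receptors and Smads, 1 was higher, Eng, an accessory receptor of endothelium, at 1.6-fold, beside 10.7% of all genes, and the median was -0.0555. Eng differed by 0.32 ± 0.33 without libraries 44 and 71 and by 0.24 ± 0.31 with the adipocyte covariate, and no receptor or Smad was under 0.05 in either. Of 22 target genes 5 were higher at an unadjusted p under 0.05 and none lower, beside 10.7% of all genes higher, with a median of 0.292. Smad7, the feedback inhibitor that TGF-β induces, chosen after its values were seen, was at 36.3, 31.6, 28.1, 30.2 and 24.3 CPM in isotype mice 1 to 5 and at 39.6, 27.3, 31.7, 33.2 and 25.7 CPM in FcD combination mice 1 to 5. Treated mouse 1 was above the isotype range and the others were inside it. It differed by 0.06 ± 0.13. Id3, a helix-loop-helix inhibitor of differentiation, was at 5.25, 7.02, 7.71, 4.32 and 4.23 CPM in isotype mice 1 to 5 and at 11.4, 9.35, 8.26, 23.6 and 7.5 CPM in FcD combination mice 1 to 5. Mouse 4 was highest and treated mouse 5 lay inside the isotype range. Cnn1, a smooth muscle calponin, owed its fold of 8.55 to mouse 4 with 0.288, 0, 0, 5.19 and 1.39 CPM in treated mice 1 to 5. Of the 22 targets 20 had a log2 fold change above 0, and 8 were under 0.05 in the fit of the 10 mice alone and 8 without FcD combination mouse 2. None of the targets was under 0.05 without libraries 44 and 71 (median 0.165) or with the adipocyte covariate (median -0.0168). Adjusted p was 0.225 to 0.273 for Id3, Cnn1 and Eng and 0.814 for Smad7.

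Genes of acute inflammatory mediators were higher, and which cells of the fragments made their RNA was not tested. Nos2, the inducible nitric oxide synthase of activated macrophages (chr11:78920787-78960254), was at 35.6, 24.5, 14.9, 14.1 and 7.97 CPM in isotype mice 1 to 5 and at 182, 26.2, 85.5, 110.4 and 62.6 CPM in FcD combination mice 1 to 5. Treated mouse 2 lay inside the isotype range and the other 4 were above it, for a fold of 4.79 (log2 2.26 ± 0.56). C3, the central complement protein, was at 117, 147, 66, 49.4 and 80.4 CPM in isotype mice 1 to 5 and at 341, 142, 282, 375 and 185 CPM in FcD combination mice 1 to 5. Here too mouse 2 alone overlapped the controls, at 2.88-fold. Il27, a cytokine of antigen-presenting cells that acts on T cells, was at 2.16, 2.02, 1.94, 1.26 and 1.8 CPM in isotype mice 1 to 5 and at 3.96, 4.45, 4.17, 5.33 and 4.51 CPM in FcD combination mice 1 to 5. Its 5 treated values were close together and above every isotype mouse. Acod1, which makes itaconate in activated macrophages, was 3.33-fold higher (log2 1.74 ± 0.51). Of 18 tested mediators 10 were higher at an unadjusted p under 0.05 and none lower, beside 10.7% of all genes higher, with a median of 1.19. Leaving out libraries 44 and 71, 6 were (median 0.683) and with the adipocyte covariate 4 (median 0.406). Nos2, C3, Il27 and Acod1 had adjusted p of 0.225.

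Arginine, the substrate of nitric oxide synthase, is taken up by Slc7a2 and regenerated by Ass1. Slc7a2 was at 5.5, 4.63, 4.03, 3.22 and 3.6 CPM in isotype mice 1 to 5 and at 23.5, 4.07, 12.7, 77.9 and 14.5 CPM in FcD combination mice 1 to 5. Its fold of 6.31 rested most on mouse 4, and mouse 2 lay among the controls; without libraries 44 and 71 the log2 difference was 1.29 ± 0.54 rather than 2.66 ± 0.58. Ass1, argininosuccinate synthase, was at 14.3, 16.9, 17.1, 13 and 11.9 CPM in isotype mice 1 to 5 and at 32.6, 17.9, 31.1, 34.2 and 27.4 CPM in FcD combination mice 1 to 5. All treated mice exceeded all isotype mice, mouse 2 by a small margin, at 1.96-fold. Of 9 genes of arginine and nitric oxide metabolism 6 were higher at an unadjusted p under 0.05, 3 without libraries 44 and 71 (median 0.486) and 3 with the adipocyte covariate (median 0.462). Slc7a2 and Ass1 had adjusted p of 0.225.

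IL-1 family genes and chemokines were higher in part. Of 15 tested IL-1 family genes 7 were higher at an unadjusted p under 0.05. Il1a, an alarmin of damaged and myeloid cells, was at 1.11, 1.49, 0.625, 1.02 and 1.8 CPM in isotype mice 1 to 5 and at 4.76, 2.34, 1.68, 2.29 and 2.52 CPM in FcD combination mice 1 to 5. Treated mouse 3 overlapped the highest isotype mouse, at 2.24-fold. Il18bp, a secreted inhibitor of IL-18 that IFNγ induces, was at 41.8, 37.7, 39, 25.2 and 22.5 CPM in isotype mice 1 to 5 and at 126, 43.5, 79.3, 88.7 and 72 CPM in FcD combination mice 1 to 5. The groups did not overlap, and the fold was 2.46. Of 18 monocyte and lymphoid chemokines and receptors 8 were higher. Ccl7, which recruits monocytes, was at 71.2, 55.9, 62.2, 63.3 and 56 CPM in isotype mice 1 to 5 and at 91, 77.6, 83, 98.3 and 110.2 CPM in FcD combination mice 1 to 5. All treated mice exceeded all isotype mice, at 1.49-fold. Of 6 tested neutrophil chemokines and receptors 3 were higher, with Cxcl2 at 14.5, 4.33, 1.6, 2.75 and 0.831 CPM in isotype mice and 40.3, 2.56, 7.78, 14.6 and 20.2 CPM in treated mice. Isotype mouse 1 was above treated mice 2 and 3 there. Il1a, Il18bp, Ccl7 and Cxcl2 had adjusted p of 0.225 to 0.27. NF-κB feedback genes had a median of 0.108, with 8 of 21 higher and 1 lower. The IL-1 family count was 2 without libraries 44 and 71 (median 0.383) and 1 with the adipocyte covariate (median 0.25). The monocyte and lymphoid chemokine count was 1 without libraries 44 and 71 (median 0.388) and 2 with the adipocyte covariate (median 0.272). The neutrophil chemokine count was 0 without libraries 44 and 71 (median 0.895) and 0 with the adipocyte covariate (median 0.657), and none of the NF-κB genes was under 0.05 in either setting.

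Markers of mast cells were higher in every tested member. Mast cells store tryptases, chymases and histamine. All 9 listed genes reached an unadjusted p under 0.05, beside 10.7% of all genes higher, at a median of 1.31. In the remaining mice without libraries 44 and 71 8 of 9 did (median 1.19), and with the adipocyte covariate 2 did (median 0.994). Tpsab1, a tryptase (chr17:25343245-25345562), was at 55.8, 28.6, 24.4, 23 and 50.02 CPM in isotype mice 1 to 5 and at 96.6, 49.6, 100.0, 91.1 and 104 CPM in FcD combination mice 1 to 5. Treated mouse 2 overlapped isotype mice 1 and 5, the other 4 treated mice were far above, and the fold was 2.43. Mcpt4, a chymase, was at 16, 11, 9.79, 5.74 and 17.4 CPM in isotype mice 1 to 5 and at 29.4, 15.8, 32.1, 28.7 and 38 CPM in FcD combination mice 1 to 5. Treated mouse 2 again lay below isotype mice 1 and 5, at 2.4-fold. Kit, the receptor that mast cells need to survive, was 2.45-fold higher. Tpsab1, Mcpt4 and Kit had adjusted p of 0.225 to 0.236. Hdc, which makes histamine, stood in both the mast cell and neutrophil lists and was 2.52-fold higher.

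Neutrophil genes were higher in 9 of 14 tested members at a median of 1.59, but 2 had an unadjusted p under 0.05 without libraries 44 and 71 (median 0.877) and 1 with the adipocyte covariate (median 0.538). Clec4e, the receptor Mincle of activated myeloid cells, was at 10.9, 11.1, 7.15, 6.92 and 7.55 CPM in isotype mice 1 to 5 and at 45, 12, 20.2, 29.1 and 21.2 CPM in FcD combination mice 1 to 5. Every treated mouse exceeded every isotype mouse, mouse 2 barely, and the fold was 2.92 (log2 1.55 ± 0.38). Clec4d, its partner receptor, was 3.57-fold higher with mouse 2 inside the isotype range. The neutrophil-defining genes Ly6g, Ngp and Camp, chosen after their values were seen, lay at most at 0.528 CPM in any of the 10 tumors. Of 26 tested macrophage and monocyte genes 9 were higher (median 0.536), among them Mertk, a receptor for dying cells, at 9.83, 18, 11.4, 10.8 and 14.5 CPM in isotype mice 1 to 5 and at 39.2, 12.4, 26, 35.9 and 29.9 CPM in FcD combination mice 1 to 5. Mouse 2 was within the isotype range and the other 4 above it. Of 16 tested dendritic cell genes 6 were higher, led by Clec9a of cross-presenting cells at 2.62-fold. The macrophage count was 1 without libraries 44 and 71 (median 0.394) and 1 with the adipocyte covariate (median 0.243). The dendritic cell count was 0 without libraries 44 and 71 (median 0.412) and 0 with the adipocyte covariate (median 0.131). Clec4e, Clec4d, Mertk and Clec9a had adjusted p of 0.225 to 0.258.

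Fcγ receptors, which the FcD antibodies do not engage, were measured too. Beside 10.7% of all genes tested, 1 of 7 genes was higher at an unadjusted p under 0.05. This was Fcer1g, the shared signaling chain, at 142, 148, 180.1, 129.9 and 121 CPM in isotype mice 1 to 5 and at 285, 178, 246, 242 and 238 CPM in FcD combination mice 1 to 5. Treated mouse 2 lay just below the highest isotype mouse, at 1.65-fold. Fcgr4, a receptor that binds IgG2a, was 1.93-fold higher with adjusted p 0.317 against 0.265 for Fcer1g. Complement genes were higher in 9 of 15, at a median of 0.606, and C4b was at 159, 143, 133, 120.2 and 103 CPM in isotype mice 1 to 5 and at 329, 164, 239.5, 321 and 217 CPM in FcD combination mice 1 to 5. C4b did not overlap between groups. The complement count was 2 without libraries 44 and 71 (median 0.491) and 1 with the adipocyte covariate (median 0.33), and no Fcγ receptor gene was under 0.05 in either setting. In the fit of the 10 mice alone 6 of 7 Fcγ receptor genes were higher at an unadjusted p under 0.05 and 3 passed the adjusted test, Fcer1g, Fcgr4 and Fcgr1, and 4 were higher at an unadjusted p under 0.05 without FcD combination mouse 2. NK cell genes had 0 of 12 under 0.05 with a median of 0.507 and 5 of 12 in the fit of the 10 mice alone, and Ncr1, their activating receptor NKp46, was 1.42-fold higher. B cell and plasma cell genes had 0 of 12 under 0.05 at a median of 1.42, 0.634 without libraries 44 and 71 and 0.0914 with the adipocyte covariate. Their summed CPM was 143, 141, 143, 142 and 125 in isotype mice 1 to 5 and 196, 157, 172, 207 and 159 in FcD combination mice 1 to 5, so that every treated sum was above every isotype sum, and in the fit of the 10 mice alone 4 of 6 tested genes were higher at an unadjusted p under 0.05. Adjusted p was 0.225 for C4b and 0.31 for Ncr1.

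Genes of cholesterol synthesis were lower. Cells make cholesterol from acetyl-CoA through the mevalonate pathway, under control of the transcription factor SREBP2. Of 14 genes, all tested, 11 were lower at an unadjusted p under 0.05, none was higher and 3 had every treated mouse below every isotype mouse. Over all genes 5.85% were lower and 1.29% had all treated mice below all isotype mice. Mvd, a decarboxylase of the mevalonate steps (chr8:122433601-122443422), was at 20.3, 20.6, 31.9, 36 and 28.2 CPM in isotype mice 1 to 5 and at 11.8, 25.9, 14.3, 12.8 and 11 CPM in FcD combination mice 1 to 5. Treated mouse 2 was within the isotype range and the other 4 were below it, for a level 0.553 times that of isotype (log2 -0.86 ± 0.27). Hmgcs1, which makes HMG-CoA (chr13:119690379-119708260), was at 92.2, 83.3, 101, 154 and 122 CPM in isotype mice 1 to 5 and at 64.1, 88.2, 72.7, 70.7 and 65 CPM in FcD combination mice 1 to 5. Isotype mice 4 and 5 were the highest, mouse 2 was the only treated mouse in the isotype range, and the ratio was 0.652. Lss, which closes the sterol ring, was at 37.5, 31, 36.1, 57.9 and 41.4 CPM in isotype mice 1 to 5 and at 22.8, 29.7, 28.2, 30.7 and 26.8 CPM in FcD combination mice 1 to 5. All treated mice lay below all isotype mice, at a ratio of 0.678. Sqle, squalene epoxidase, was at 150.4, 132, 138, 217 and 182 CPM in isotype mice 1 to 5 and at 89.2, 130.3, 105, 106 and 100.4 CPM in FcD combination mice 1 to 5. It also showed no overlap and a ratio of 0.649. Mvd, Hmgcs1, Lss and Sqle had adjusted p of 0.225 to 0.24. Without libraries 44 and 71 the median was -0.565 against -0.621 with all mice and 5 genes were under 0.05, while with the adipocyte covariate it was -0.233 with 0. The median was -0.246 within libraries 41 to 60 and -0.8 within libraries 61 to 80.

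One of 8 sterol genes with a promoter in the table, Hmgcs1, held the sterol element searched (TCACNCCAC, in 1.24% of all promoters), shown in capitals at chr13:119690194-119690350 on the plus strand.
Hmgcs1: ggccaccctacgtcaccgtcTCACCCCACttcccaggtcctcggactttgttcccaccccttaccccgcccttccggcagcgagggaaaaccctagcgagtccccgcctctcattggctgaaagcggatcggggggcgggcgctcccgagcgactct
The element began 137 bases before the RefSeq start used here, which lies upstream of the GENCODE span given above. That the other sterol genes lack these letters says nothing of the factor, since only this window and this spelling were searched.

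Cell cycle genes were lower by small amounts. Of 36 genes 12 were lower at an unadjusted p under 0.05, beside 5.85% of all genes, none was higher, and the median was -0.188. Ccna2, cyclin A2 of DNA replication, was at 218, 232, 232, 235 and 240.1 CPM in isotype mice 1 to 5 and at 147, 181, 186, 152 and 225 CPM in FcD combination mice 1 to 5. Mouse 5 alone overlapped the isotype range, at a ratio of 0.77 (log2 -0.38 ± 0.11). Aurkb, a kinase of chromosome segregation, was at 125, 134, 128, 131 and 134 CPM in isotype mice 1 to 5 and at 94.7, 109.5, 108, 97.6 and 125 CPM in FcD combination mice 1 to 5. Mouse 5 was again the one treated mouse inside the isotype range, and the ratio was 0.82. Outside that list Cdca2, Ncaph and Kif2c, which act on chromosomes in mitosis, were among the 10 lower genes with the smallest p and no overlap. Ncaph, a subunit of condensin, was at 59.4, 60.9, 60.1, 59.9 and 60.5 CPM in isotype mice 1 to 5 and at 45.7, 47.7, 51.1, 42.9 and 58.1 CPM in FcD combination mice 1 to 5. The isotype mice were almost identical and the treated mice lay below them, with mouse 5 nearest. Ccna2, Aurkb, Ncaph, Cdca2 and Kif2c had adjusted p of 0.225 to 0.238. Without libraries 44 and 71 0 cell cycle genes were under 0.05 (median -0.0925), and with the adipocyte covariate 1 was (median -0.105). Mki67, the proliferation marker, chosen after its values were seen, differed by -0.02 ± 0.13.

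Stress and lipid mediator genes were mixed. Of 11 genes of the unfolded protein and amino acid response 4 were lower and 1 was higher at an unadjusted p under 0.05. Herpud1, which helps to degrade misfolded proteins of the endoplasmic reticulum, was at 86, 86.4, 93.7, 89.6 and 95.9 CPM in isotype mice 1 to 5 and at 59.96, 85.7, 78.5, 64.5 and 61.1 CPM in FcD combination mice 1 to 5. All treated mice lay below all isotype mice, mouse 2 narrowly, at a ratio of 0.774. Chac1, which degrades glutathione under stress, was at 32.6, 24.1, 28.4, 34.8 and 29.5 CPM in isotype mice 1 to 5 and at 16.8, 23.4, 18.4, 19.4 and 17.6 CPM in FcD combination mice 1 to 5. It separated the groups too, at a ratio of 0.641. Atf3, an immediate stress factor, was 1.82-fold higher. Ptgs1, the constitutive cyclooxygenase COX-1, was at 145, 148, 144, 146 and 155 CPM in isotype mice 1 to 5 and at 83.5, 138, 102, 76.8 and 104 CPM in FcD combination mice 1 to 5. The isotype mice were within a narrow band, all treated mice were below it, and the ratio was 0.684 (log2 -0.55 ± 0.17). Herpud1, Chac1, Atf3 and Ptgs1 had adjusted p of 0.225 to 0.25. Among 15 genes of eicosanoid synthesis 6 were higher and 2 lower. Without libraries 44 and 71 the eicosanoid counts were 1 higher and 0 lower, and 1 gene of the unfolded protein response was lower. With the adipocyte covariate 1 eicosanoid gene was lower and no gene of either list was higher. Alox15, a lipoxygenase of macrophages and eosinophils, was 4.59-fold higher at no more than 2.02 CPM in any tumor.

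**Figure D4:**
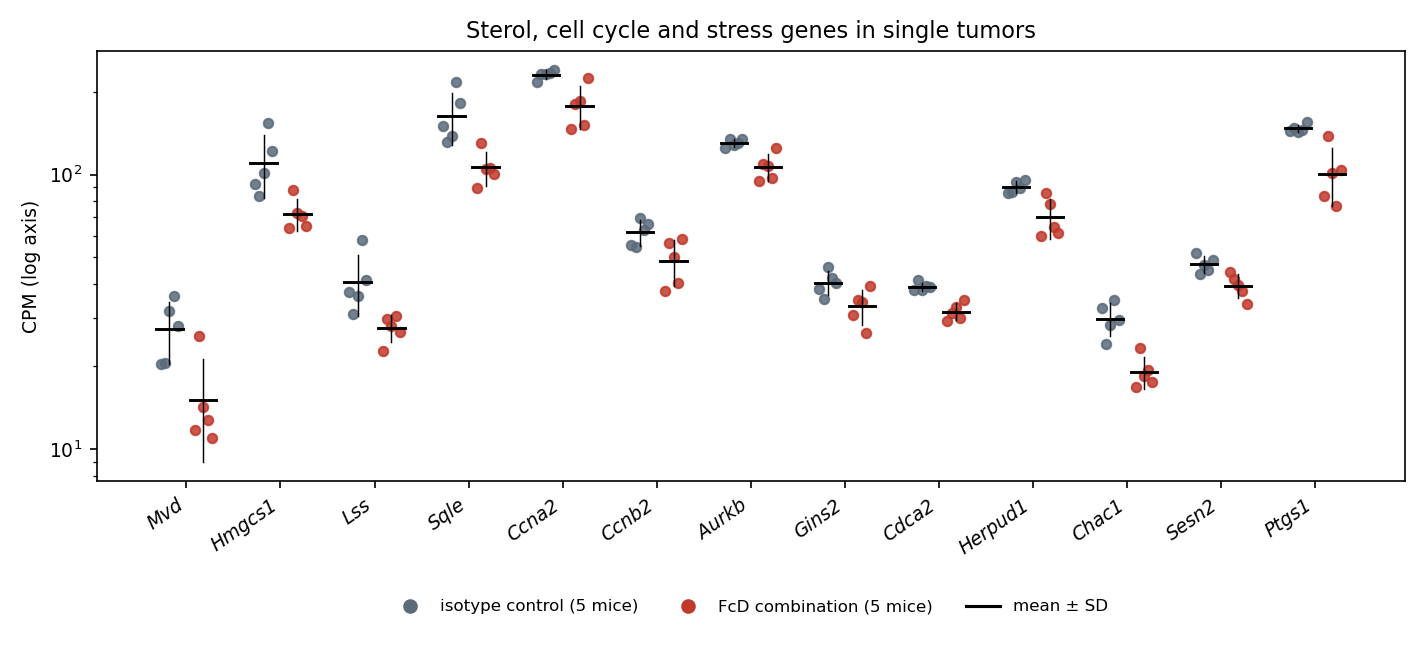
CPM on a log axis (vertical) of 13 sterol, cell cycle, stress and lipid genes (horizontal) in single tumors, isotype in grey and FcD combination in red, with bars for the mean and SD of 5 mice. Lss, Sqle, Herpud1, Chac1, Cdca2 and Ptgs1 show no overlap, and treated mouse 2 lies in the isotype range for Mvd and Hmgcs1.

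The genes with the smallest p-values and no overlap between groups came from several functions. Sod2, the mitochondrial superoxide dismutase that TNFα and IFNγ induce (chr17:13006846-13040063), was at 82.2, 73.2, 80.5, 71.6 and 72.4 CPM in isotype mice 1 to 5 and at 118, 93.4, 101, 112 and 94.5 CPM in FcD combination mice 1 to 5. Isotype mice were tightly grouped, all treated mice were above them, and the fold was 1.37 (log2 0.45 ± 0.09). Cib2, a calcium-binding protein, was at 0.742, 0.672, 1.04, 0.393 and 0.624 CPM in isotype mice 1 to 5 and at 4.54, 1.58, 2.81, 5.46 and 1.86 CPM in FcD combination mice 1 to 5. It was at low CPM with no overlap, at 4.62-fold. Irak2, a kinase of IL-1 and Toll-like receptor signaling, was at 29.2, 21.4, 26.8, 22.8 and 23.6 CPM in isotype mice 1 to 5 and at 46.6, 31.5, 34.4, 39.6 and 32.1 CPM in FcD combination mice 1 to 5. Ninj1, which ruptures the membrane of dying cells, was at 63.2, 52.8, 69.7, 44.9 and 51.3 CPM in isotype mice 1 to 5 and at 160.0, 72.6, 83.2, 107 and 76.7 CPM in FcD combination mice 1 to 5. Both separated the groups with mouse 1 highest, at folds of 1.49 and 1.77. Cx3cl1, Slc2a4, Asap3 and Blvrb completed the higher genes not yet named, at 3.26-fold, 16.3-fold, 1.58-fold and 1.43-fold. Slc2a4 is the insulin-responsive glucose transporter of fat and muscle, and its treated values of 5.98, 0.905, 2.81, 8.5 and 0.73 CPM followed the order of the adipocyte sums in mice 4, 1 and 3. On the lower side Cav1, the coat protein of caveolae, was at 745, 729, 741, 927 and 885 CPM in isotype mice 1 to 5 and at 534, 606, 639, 576 and 670.4 CPM in FcD combination mice 1 to 5. No treated mouse reached the isotype range, at a ratio of 0.752. Anxa8, an annexin, had a ratio of 0.579, and Rpp14, Nde1, Gtf2ird2, Ing1 and Ska1 had ratios of 0.814, 0.845, 0.775, 0.828 and 0.695. Adjusted p was 0.134 for Sod2 and Cib2 and 0.225 for the others. These genes were picked for their separation, so that their lack of overlap is a description. Without libraries 44 and 71 Sod2 differed by 0.33 ± 0.10 and Asap3 by 0.63 ± 0.19, and none passed the adjustment.

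Stromal genes depended on a few mice. Of 12 fibroblast genes 7 were higher at an unadjusted p under 0.05 (median 1.32), and none without libraries 44 and 71 (median 0.323) or with the adipocyte covariate (median -0.0467). Dcn, the matrix proteoglycan decorin, was at 46.8, 47, 38.3, 26.9 and 21.9 CPM in isotype mice 1 to 5 and at 124, 43.8, 76.5, 142 and 46.1 CPM in FcD combination mice 1 to 5. Treated mice 1 and 4 were highest, and mice 2 and 5 lay in the isotype range. Of 16 endothelial genes 6 were higher, with Vwf, von Willebrand factor, at 1.92, 1.12, 1.25, 1.81 and 0.693 CPM in isotype mice 1 to 5 and at 8.72, 1.81, 3.93, 12.9 and 3.32 CPM in FcD combination mice 1 to 5. Mice 1 and 4 were again highest and mouse 2 was among the controls. No endothelial gene was under 0.05 without both libraries or with the adipocyte covariate, and the median went from 0.593 to 0.195 and 0.0509. Icam1, the adhesion molecule that TNFα and IFNγ induce on vessels, was more even, at 26.9, 24.1, 27.7, 23.2 and 22.4 CPM in isotype mice 1 to 5 and at 52.6, 31.2, 51.9, 57.9 and 50.2 CPM in FcD combination mice 1 to 5. All treated mice exceeded all isotype mice, at 1.96-fold. Of 17 collagen genes 1 was higher, beside 10.7% of all genes, and Col1a1, chosen after its values were seen, differed by 0.26 ± 0.34. Adjusted p was 0.225 to 0.24 for Dcn, Vwf and Icam1 and 0.703 for Col1a1.

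Markers of epithelium, gland, fat and blood were high in a few treated tumors. Krt8, a keratin of simple epithelium, was at 0.0618, 0.149, 1.74, 7.7 and 3.39 CPM in isotype mice 1 to 5 and at 0.144, 0.226, 0, 172 and 13.4 CPM in FcD combination mice 1 to 5. Treated mouse 4 had most of it, mouse 5 some, and treated mice 1 to 3 were inside or below the isotype range. Elf5, a transcription factor of mammary and other glands, was at 0, 0, 0.0694, 0.314 and 0.139 CPM in isotype mice 1 to 5 and at 0, 0, 0, 8.77 and 0.996 CPM in FcD combination mice 1 to 5. Treated mouse 4 stood far above the other 9 tumors. Of 10 tested epithelial genes 7 were higher and 1 lower at an unadjusted p under 0.05, at a median of 2.53. That median was 0.552 without libraries 44 and 71 and 2.28 with the adipocyte covariate, with none under 0.05 in either. It was -0.00955 over 7 genes within libraries 41 to 60 and 3.3 over 10 within libraries 61 to 80. What part the library part had was not tested. With the library part as a covariate 17 genes (0.115%) had an adjusted p under 0.05, all higher, and epithelial and glandular genes such as Krt8, Cldn3, Cldn4, Elf5, Prlr, Fxyd3, Esrp1, Prom2 and Fgfr2 were among them along with Sod2, Cib2, Cx3cl1 and Defb52. Sod2 then differed by 0.43 ± 0.09 on the log2 scale, with 0.0213 as its adjusted p in the edgeR test. Tmem56, Fcgbp, Sox10 and Atp6v1b1 made up the rest. All 10 adipocyte genes were higher at an unadjusted p under 0.05, with Adipoq, the hormone adiponectin, at 9.52, 4.56, 1.18, 0.0786 and 0.346 CPM in isotype mice 1 to 5 and at 38.2, 5.66, 19.5, 83.5 and 3.85 CPM in FcD combination mice 1 to 5. Isotype mouse 1 exceeded treated mice 2 and 5. All 7 hemoglobin and other red cell genes were higher, with Hbb-bs, a β-globin, at 18.7, 33.6, 54.2, 17.8 and 45.3 CPM in isotype mice 1 to 5 and at 174, 132, 28, 166 and 44.5 CPM in FcD combination mice 1 to 5. Treated mice 1, 2 and 4 were high and mice 3 and 5 were in the isotype range. No adipocyte or red cell gene was under 0.05 without libraries 44 and 71 or with the adipocyte covariate, and the red cell median of 1.94 was 1.21 and 1.33 in these settings. For adipocyte genes a smaller difference was built into both settings. The covariate is their own mean level, and the pair of libraries was chosen for their sums. Krt8, Elf5, Adipoq and Hbb-bs had adjusted p of 0.235 to 0.263 without the covariate.

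**Figure D5:**
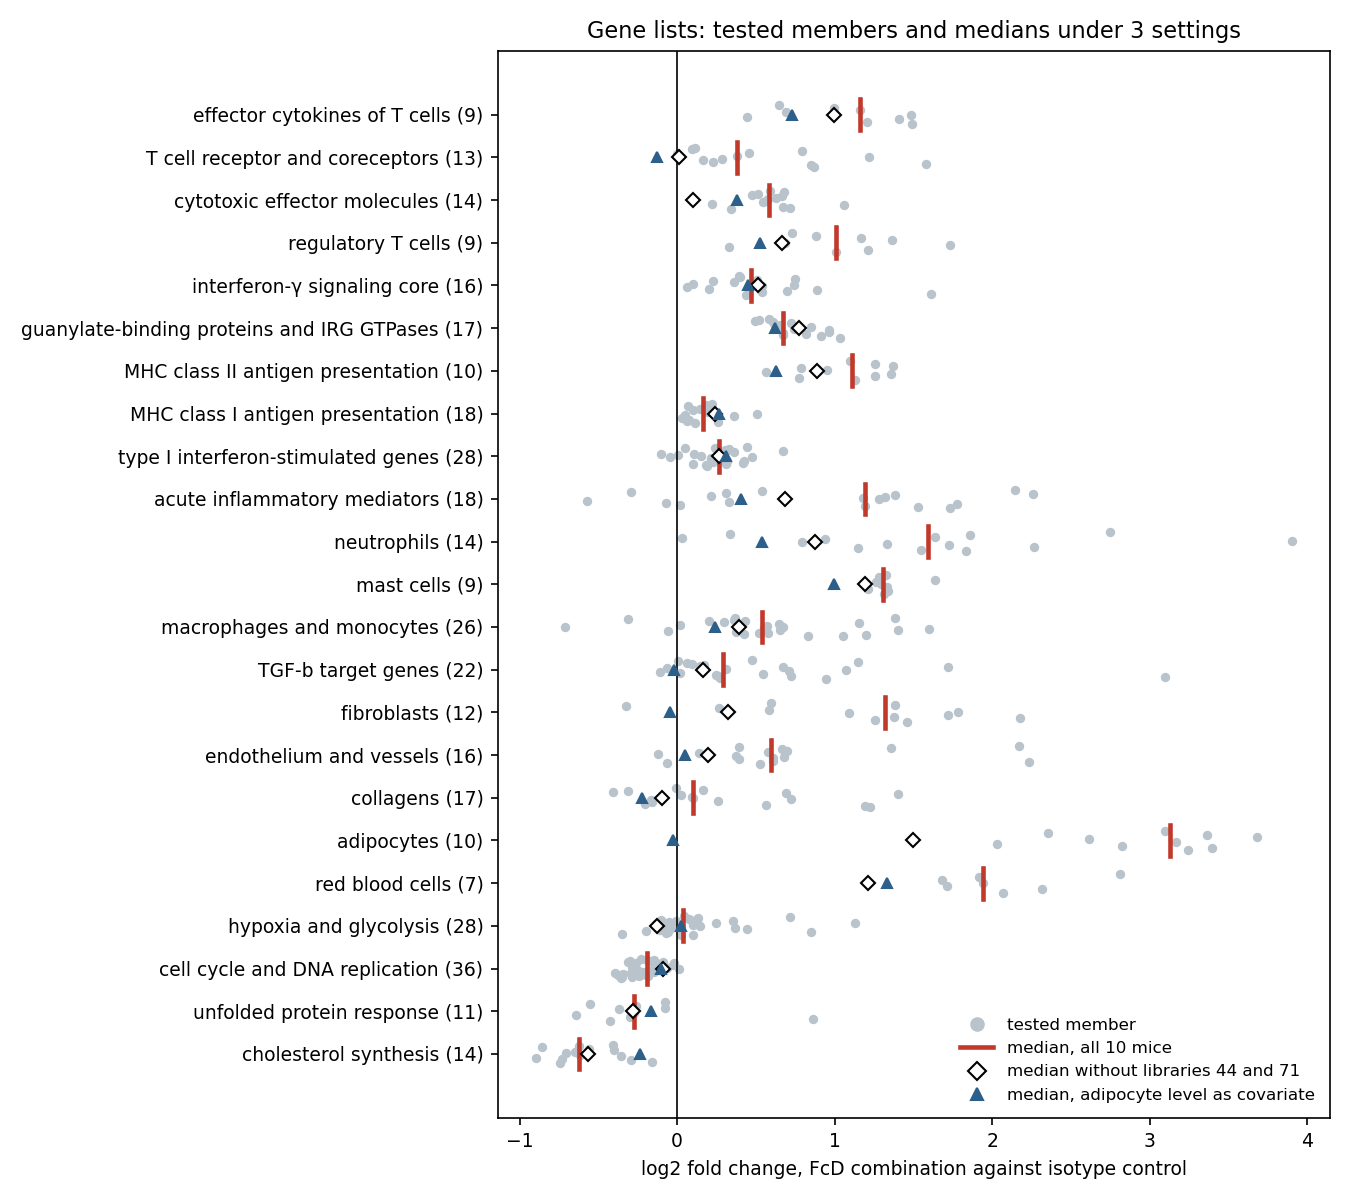
Log2 fold changes (horizontal axis) of every tested member of 23 gene lists (vertical axis) in the FcD combination against isotype, with red lines for the median of all mice, diamonds for the median without libraries 44 and 71 and triangles for the median with the adipocyte covariate. The medians of the IFNγ core, GTPases and mast cells are 0.47, 0.675 and 1.31 with all mice and 0.516, 0.777 and 1.19 without the pair of libraries. Those of fibroblasts and adipocytes go from 1.32 and 3.13 to 0.323 and 1.5. The pair was chosen for its adipocyte sums, so a lower adipocyte median was built in.

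The FcD combination was next set beside its own components and beside the combination whose anti-GARP:TGF-β1 antibody can bind Fcγ receptors. These contrasts came from the same model of 40 mice. Against anti-GARP:TGFb WT + anti-PD1 FcS, which differs by the Fc substitutions of the anti-GARP:TGF-β1 antibody at the same days of treatment, no gene (0.0%) was under an adjusted p of 0.05 with edgeR or with DESeq2's Wald test, and 120 (0.813%) were higher and 72 (0.488%) lower at an unadjusted p under 0.05. Ifng was 3.36 ± 0.486 CPM (mean ± SD, n = 5 mice) in the FcD combination and 3.09 ± 1.52 in the WT combination, a log2 difference of 0.12 ± 0.45. For H2-Ab1 the values were 673 ± 202 and 756 ± 756 CPM (-0.17 ± 0.52), and for Hmgcs1 they were 72.1 ± 9.66 and 71 ± 20.4 (0.02 ± 0.22). Foxp3 was 2.22 ± 0.908 and 1.88 ± 0.723 CPM (0.24 ± 0.45). These standard errors leave room for differences in either direction, and a missed threshold does not show that both antibodies act alike. Without WT combination mouse 5 the counts were 576 higher and 220 lower, and leaving out any of the other 9 mice gave 62 (FcD combination mouse 4) to 189 (FcD combination mouse 2) higher and 70 to 157 lower.

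Against anti-PD1 FcS alone, no gene (0.0%) passed the adjusted test of edgeR or DESeq2, and 953 (6.46%) were higher and 630 (4.27%) lower at an unadjusted p under 0.05. Ifng was 1.39 ± 1.34 CPM with anti-PD-1 alone, a log2 difference of 1.26 ± 0.47. Cd274 was 106 ± 75.6 CPM against 202 ± 65.9 in the FcD combination (0.94 ± 0.41). Of the listed genes 7 of 10 class II genes were higher than with anti-PD-1 alone (median 0.875), and so were 6 of 9 effector cytokines (median 0.933), 2 of 17 GTPases (median 0.529) and 1 of 9 mast cell genes (median 0.564). The single mice of the anti-PD-1 group scattered widely, with Tnf from 2.66 to 21.3 CPM. Single mice moved the counts, to 1714 higher and 2060 lower without FcD combination mouse 2, 1781 and 1233 without anti-PD-1 mouse 2, 499 and 307 without FcD combination mouse 1, 412 and 293 without FcD combination mouse 4, 496 and 446 without anti-PD-1 mouse 3, and 635 and 555 without anti-PD-1 mouse 5. Taking out anti-PD-1 mouse 1 gave 761 and 378, and the adipocyte level as a covariate gave 165 and 247.

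Against anti-GARP:TGFb FcD alone, 1915 genes (13.0%) were higher and 1168 (7.91%) lower at an unadjusted p under 0.05, and no gene (0.0%) passed the adjusted test. That zero rested on FcD combination mouse 2, since 719 genes passed without it, and DESeq2's Wald test called 174 with all mice. The counts at an unadjusted p under 0.05 were 2480 higher and 2541 lower without FcD combination mouse 2. They were 336 and 249 with the adipocyte level as a covariate, 1314 and 667 without FcD combination mouse 1, and 1208 and 652 without FcD combination mouse 4. Ifng was 0.989 ± 0.497 CPM with the FcD antibody alone, a log2 difference of 1.75 ± 0.48. Nos2 was 17.1 ± 8.43 CPM against 93.3 ± 58.4 in the combination (2.45 ± 0.56), Gbp5 was 45.6 ± 18.1 against 97.5 ± 16.1 (1.09 ± 0.36) and Mvd was 23.3 ± 6.92 against 15.2 ± 6.15 (-0.62 ± 0.28). Adjusted p was 0.122, 0.122, 0.135 and 0.199 in edgeR's quasi-likelihood test. 15 of 17 GTPases, 11 of 16 IFNγ core genes and 8 of 10 class II genes were higher at an unadjusted p under 0.05, with medians of 0.949, 0.611 and 1.

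Set against the same isotype mice, which all these comparisons share, the arms gave the following values side by side. The class II median log2 fold change was 1.11 in the FcD combination, 1.05 in the WT combination, 0.0908 with anti-PD-1 alone and -0.076 with the FcD antibody alone. For mast cell genes the medians were 1.31, 1.75, 0.746 and -0.0302 in that order. For cholesterol synthesis they were -0.621, -0.648, -0.385 and -0.17. T cell receptor genes had medians of 0.379, 0.959, -0.415 and -0.42. In the group given anti-TGFb + anti-PD1 FcS, Ifng was 3.31 ± 0.915 CPM and Nos2 41.6 ± 38.2 CPM.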

How the data were processed

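RNA of CT26 tumor fragments was sequenced from stranded mRNA libraries. The authors deposited raw counts per gene and mouse, not normalized, and the submitters' processing notes name STAR 2.5.3a, SAMtools 1.6, HTSeq 0.9.1 and GRCm38. From the 54087 genes of the table, those passing edgeR's filterByExpr over the 8 groups (14760) were normalised by TMM and fitted in 1 robust quasi-likelihood model of all 40 mice (edgeR 4.0.16, R 4.3.3), with 5 mice per group as biological replicates, 2-sided p-values adjusted by Benjamini-Hochberg over all genes tested and a threshold of 0.05. CPM used TMM library sizes. DESeq2 1.42.0 was an alternative, as were other size factors, no filter, only the 10 mice, the library part as a covariate and each mouse left out. On simulated counts for this contrast 200 of 14760 genes were changed in each run. At a log2 change of 1, 71% of them were recovered with 7 false calls, and at 2, 89.5% with 8. Counts were drawn gene by gene, without the differences between tumors that many genes share. The recovery therefore does not give the power for these tumors. Gene positions came from GENCODE vM21 and promoters from RefSeq. The comparison and the gene lists were chosen with earlier results of these data known. Named were 9 genes of the GARP, PD-1 and IFNγ pathways, the 4 members of each list with the smallest p, the 10 higher and 10 lower genes with the smallest p and no overlap, the 17 genes under an adjusted p of 0.05 with the library part as covariate, and 3 abundant markers per cell type. Levels between 12359062 and 16232524 counts per tumor limit precision for genes at a few CPM. Names that spreadsheet software had turned into dates (2, in 4 entries) were kept as found. Labels give no batch.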

Additional observations from a re-analysis of the deposited data

Results flagged for a closer look

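Single tumors that stood apart from the other 4 of their group were looked for with Dixon's ratio, the gap to the nearest mouse divided by the range of the group, with a limit of 0.71 for 5 mice. Of 196 groups checked 31 exceeded it. Chance gives about 1 in 20 for independent groups, which these are not, since many genes share a mouse and some were named for their values in these tumors.

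FcD combination mouse 4 was the highest for epithelial and skin genes. The ratio was 0.928 for the summed CPM of the epithelial and colon carcinoma list and 0.753 for that of skin keratinocytes. Among single genes it was 0.922 for Krt8, 0.922 for Prom2, 0.901 for Cldn4, 0.886 for Elf5 and 0.871 for Prlr. It was 0.851 for Tmem56, 0.839 for Atp6v1b1, 0.818 for Fgfr2, 0.791 for Cldn3, 0.787 for Sox10, 0.771 for Esrp1 and 0.75 for Fxyd3.

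FcD combination mouse 1 was the highest for the summed CPM of cytotoxic effector molecules (0.844), of matrix metalloproteinases (0.944), of genes for GARP:TGF-β1 production (0.75) and of eosinophil and basophil genes (0.711), and for Pdcd1 (0.776). FcD combination mouse 2 was the lowest for mast cell genes (0.813) and the highest for skeletal muscle (0.749), cytosolic ribosomal proteins (0.774) and the nuclear-encoded respiratory chain (0.828).

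In the isotype group mouse 3 was the highest for cytosolic ribosomal proteins (0.815), the respiratory chain (0.738), Tgfb1 (0.823) and Ska1 (0.763), and the lowest for TGF-β receptors and Smads (0.722). Isotype mouse 5 was the lowest for B cells and plasma cells (0.889) and for endothelium and vessels (0.764), and the highest for Sox10 (0.716). What set these tumors apart was not tested.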

How the results depend on the processing

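No paired analysis was possible because the labels give no replicate numbers, and mice were numbered in accession order only. The count of genes under an adjusted p of 0.05 against isotype, 0 in the model of all 40 mice, was 14 with DESeq2's Wald test, which started from 31326 genes. It was 17 with the library part as a covariate, 177 when only the 10 mice were fitted and 266 within libraries 61 to 80. In the model of 40 mice it was 0 whichever single mouse was left out. Genes higher at an unadjusted p under 0.05 numbered 157 with the adipocyte covariate, 217 without libraries 44 and 71, 172 within libraries 41 to 60, 2394 with no filter on low counts and 789 to 2226 when single mice were left out. Genes lower numbered 102, 116, 159, 1021 and 377 to 2242 under the same settings, and 1503 within libraries 61 to 80. The lowest counts came without FcD combination mice 1 (987 higher, 377 lower) and 4 (789 and 404), and the highest without mouse 2. Against anti-GARP:TGFb FcD alone, the adjusted count was 174 with DESeq2's Wald test, 4 with the library part as a covariate and 0 to 719 when single mice were left out, with 719 without FcD combination mouse 2. Of 277 named genes 30 changed the sign of their log2 fold change with the adipocyte covariate, 14 without libraries 44 and 71, and none with DESeq2's test or size factors, and none of these was past the adjusted test. The cause was not tested. With 5 mice per group and CPM near 1, as for Foxp3 or Ifng, counting error adds to the spread between mice.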

Other observations

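Ribosomal protein genes had a median log2 fold change of -0.179 with 0 of 84 under an unadjusted p of 0.05, and without FcD combination mouse 2 the median was -0.372 with 50 lower. Their summed CPM was 84500, 78700, 110000, 84200 and 83900 in isotype mice 1 to 5 and 73600, 115000, 72600, 65500 and 61500 in FcD combination mice 1 to 5, so that mouse 2 and isotype mouse 3 were the highest of their groups.

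Of 28 hypoxia and glycolysis genes 3 were higher at an unadjusted p under 0.05, beside 10.7% of all genes tested, and the median was 0.0346. Pfkfb3, which drives glycolysis, was at 45.1, 48.5, 37.9, 38.3 and 30.6 CPM in isotype mice 1 to 5 and at 129, 44.8, 73.3, 115 and 75.9 CPM in FcD combination mice 1 to 5. Treated mouse 2 lay among the controls and the other 4 were above. Among 13 genes of cell death and p53, Casp4, the caspase that senses bacterial lipopolysaccharide inside cells, was at 34.5, 39.5, 36.9, 25.5 and 29.5 CPM in isotype mice 1 to 5 and at 44.4, 49.9, 48.3, 41.4 and 42 CPM in FcD combination mice 1 to 5. All treated mice exceeded all isotype mice. Fas, the death receptor, was at 12.1, 11.1, 9.58, 7.15 and 9.01 CPM in isotype mice 1 to 5 and at 14.1, 15.1, 14.3, 14.4 and 13.6 CPM in FcD combination mice 1 to 5. The treated mice were nearly equal and above every isotype mouse, at 1.46-fold. Adjusted p was 0.225 to 0.235 in edgeR's quasi-likelihood test with Benjamini-Hochberg adjustment.

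Of 396 listed immunoglobulin segments 15 could be tested, and Igha, the constant region of IgA, was at 2.23, 2.39, 0.555, 0.393 and 0.485 CPM in isotype mice 1 to 5 and at 4.76, 3.997, 4.09, 11.4 and 1.86 CPM in FcD combination mice 1 to 5. Treated mouse 4 was highest and mouse 5 lay inside the isotype range. Of 256 T cell receptor segments 9 could be tested and 0 differed at an unadjusted p under 0.05, with a median of 0.299.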
